A study of Mus musculus with 12 samples.

Results

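Prox1, C1ql2, Dsp, Lct, Tdo2, Wfs1, Spink8 and Fibcd1 are genes used to mark neurons of the hippocampus, and they were followed here in RNA from mouse cortex. The members were the rows of the deposited gene tables that carry these 8 symbols, 8 of 41388 genes, and all 8 passed the filter on low counts together with 17441 genes in all. The first 5 mark granule cells of the dentate gyrus and the last 3 mark pyramidal cells of field CA1. The hippocampus lies directly beneath the cortex, and the labels name cortex as the only tissue.

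Cortical poly(A) RNA of 12 adult C57Bl/6 mice was sequenced, 1 library per mouse and 3 libraries in each of 4 groups. KI mice carry a knock-in of Grin1 exon 5 (genotype Grin1-exon5+/+), and KI_WT mice are the wild types of that line. KO mice lack exon 5 (Grin1-exon5-/-), and KO_WT mice are the wild types of the knockout line. Grin1 encodes the obligatory subunit of the NMDA class of glutamate receptor; its exon 5, an alternatively spliced cassette, codes for part of the extracellular domain, and the lines fix a choice that neurons otherwise make by splicing. The labels name no Cre driver, and they give neither the sex of the mice nor the litters. KI 1 to KI 3 and the like name the libraries of a group, with numbers that follow the sample records. Total counts were 31790970 to 36514024 per library.

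The dentate gyrus is the entrance of the hippocampal circuit, where densely packed granule cells receive input from entorhinal cortex and send mossy fibres to CA3, while CA1 pyramidal cells form its output. Prox1 is a homeobox transcription factor that specifies granule cells and keeps their identity. C1ql2 is a secreted C1q-like protein of mossy fibre synapses, and Dsp encodes desmoplakin, the plaque protein that links desmosomes to intermediate filaments. Lct (lactase) and Tdo2 (tryptophan 2,3-dioxygenase) are enzymes best known from intestine and liver, whose transcripts also mark mouse granule cells. Wfs1 encodes wolframin, a membrane protein of the endoplasmic reticulum. Spink8 belongs to the Kazal-type serine protease inhibitors, and Fibcd1 encodes a membrane receptor with a fibrinogen domain that binds acetylated sugars. Several of these genes have other sites of expression in the forebrain: Prox1 is also made by interneurons from the caudal ganglionic eminence and by lymphatic endothelium, and Wfs1 by neurons of upper cortical layers and of striatum.

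The members lie at separate places of the GRCm38 genome. Prox1 (ENSMUSG00000010175) spans chr1:190118035-190170714 on the minus strand, Lct (ENSMUSG00000026354) chr1:128284756-128328318 on the minus strand and C1ql2 (ENSMUSG00000036907) chr1:120340582-120343174 on the plus strand. Dsp (ENSMUSG00000054889) spans chr13:38151294-38198577 on the plus strand and Tdo2 (ENSMUSG00000028011) chr3:81957090-81976202 on the minus strand. Of the CA1 markers, Wfs1 (ENSMUSG00000039474) spans chr5:36966104-36989205 on the minus strand, Spink8 (ENSMUSG00000050074) chr9:109812280-109826633 on the plus strand and Fibcd1 (ENSMUSG00000026841) chr2:31813290-31846005 on the minus strand. All 8 are protein-coding. Prox1 shares exonic sequence with the antisense gene Prox1os, which had 30 to 83 counts per library against 508 to 1932 for Prox1. Dsp shares exonic sequence with Gm10129 on the opposite strand, a gene for which no counts were given. Whether the counting used strand was not given in the sources used here, so some reads of these overlaps can belong to either gene of a pair.

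The promoters of Dsp, Lct and C1ql2, 3 granule cell markers that were lowest in the same 4 libraries, are shown beside that of Wfs1, which was not lowest in those. Each window runs from 250 bases before to 50 bases after the annotated start, 5′ to 3′ on the strand of the gene (RefSeq, GRCm38.p6). Capitals mark matches to the E-box letters CANNTG, searched on both strands; E-boxes are bound by basic helix-loop-helix factors such as those of the NeuroD family.
Dsp, chr13:38151044-38151343, plus strand: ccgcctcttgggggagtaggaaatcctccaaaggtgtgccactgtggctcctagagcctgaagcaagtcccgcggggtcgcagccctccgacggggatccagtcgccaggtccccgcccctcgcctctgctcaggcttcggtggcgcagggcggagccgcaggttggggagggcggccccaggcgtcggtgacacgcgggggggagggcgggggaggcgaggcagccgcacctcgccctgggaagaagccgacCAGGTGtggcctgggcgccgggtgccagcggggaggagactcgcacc
Lct, chr1:128328269-128328568, minus strand: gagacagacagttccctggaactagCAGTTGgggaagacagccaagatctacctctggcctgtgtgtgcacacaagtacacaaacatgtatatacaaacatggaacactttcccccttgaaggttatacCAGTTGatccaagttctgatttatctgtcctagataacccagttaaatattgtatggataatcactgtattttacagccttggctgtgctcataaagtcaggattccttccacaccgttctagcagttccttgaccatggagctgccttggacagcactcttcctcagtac
C1ql2, chr1:120340332-120340631, plus strand: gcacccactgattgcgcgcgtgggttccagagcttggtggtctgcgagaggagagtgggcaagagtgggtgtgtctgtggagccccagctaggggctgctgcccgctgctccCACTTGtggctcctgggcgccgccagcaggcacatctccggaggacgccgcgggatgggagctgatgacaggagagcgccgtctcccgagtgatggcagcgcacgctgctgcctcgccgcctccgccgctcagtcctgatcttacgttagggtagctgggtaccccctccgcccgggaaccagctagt
Wfs1, chr5:36988933-36989232, minus strand: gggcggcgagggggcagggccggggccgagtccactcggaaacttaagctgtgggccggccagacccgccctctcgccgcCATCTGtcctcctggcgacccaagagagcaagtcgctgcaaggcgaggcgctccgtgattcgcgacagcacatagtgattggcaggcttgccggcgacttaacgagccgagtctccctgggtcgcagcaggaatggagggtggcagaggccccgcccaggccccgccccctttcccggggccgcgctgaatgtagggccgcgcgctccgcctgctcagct

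The Dsp, C1ql2 and Wfs1 windows each held 1 CANNTG match and the Lct window held 2. In Wfs1 the match was of the CAGATG form, a subset of CANNTG, read on the other strand. CANNTG was present in 72.31% of all 32851 promoter windows of this length and CAGATG in 17.15%, so that a match in a single window is common. The Lct window was the poorest in G and C, with 44.67% of its bases against 73% for Dsp, 67.33% for C1ql2 and 70% for Wfs1. TATAAA, found in 13.62% of all windows, was in none of these 4; it was present once in the window of Tdo2 and once in 1 of 2 windows of Prox1. In all, 8 windows matched 7 of the 8 members.

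In each group 1 library was low for most members. These were KI 2, KI_WT 3, KO 1 and KO_WT 1. They were the 4 lowest of the 12 libraries for Prox1, C1ql2, Dsp, Lct, Spink8 and Fibcd1, 6 of the 8 members, whereas the same 4 libraries were the 4 lowest for 0.608% of all genes tested. The exceptions were Tdo2 and Wfs1. These 4 libraries were taken as those below the widest gap in the levels of Dsp, itself a member. Dsp therefore meets the count by construction, and the count beside the share of all genes is a description only. In bulk tissue, fewer cells of a type and less RNA per cell cannot be told apart.

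Per gene length, Wfs1 stood above the other members. Its median over the 12 libraries was 23.4 RPKM (reads per kilobase of transcript, scaled to library size), and it was the highest member in all 12 libraries. Spink8 followed with a median of 5.37 RPKM, Prox1 with 4.97, Fibcd1 with 4.83 and C1ql2 with 4.11 RPKM. Neighbours in the order of Spink8, Prox1 and Fibcd1 could not be told apart: Spink8 was above Prox1 in 7 of 12 libraries, and Prox1 above Fibcd1 in 3 of 12. Fibcd1 exceeded C1ql2 in 11 libraries. The enzymes and the desmosomal gene were the lowest, with medians of 0.904 RPKM for Lct, 0.728 for Dsp and 0.626 for Tdo2. C1ql2 was above Lct in all 12 libraries and Lct above Dsp in 10, whereas Dsp was above Tdo2 in 6 of 12.

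By library, levels were read as library-size scaled counts (CPM) corrected by the trimmed mean of M-values (TMM). Dsp gave the clearest separation. It was at 11.2, 1.11 and 8.76 CPM in libraries 1 to 3 of KI, and at 15.3, 7.61 and 1.46 CPM in those of KI_WT. In the knockout line it was at 0.767, 6.43 and 6.19 CPM in libraries 1 to 3 of KO, and at 0.283, 12.8 and 8.63 CPM in those of KO_WT. The 4 low libraries ended at 1.46 CPM and the other 8 began at 6.19 CPM, a gap of 2.08 on the log2 scale that held no library. The lowest value rested on 9 counts and the highest on 472, and the highest level was 53.8 times the lowest. All 4 groups spanned the gap, so the groups overlapped.

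Lct, the lactase gene, fell into the same sets of libraries. Its levels were 8.15, 0.827 and 6.60 CPM in libraries 1 to 3 of KI, and 10.02, 7.95 and 1.34 CPM in those of KI_WT. They were 0.521, 5.29 and 4.03 CPM in libraries 1 to 3 of KO, and 1.20, 11.5 and 6.23 CPM in those of KO_WT. The low set ended at 1.34 CPM and the other 8 libraries began at 4.03 CPM. The order within the low set was not that of Dsp: KO 1 was lowest for Lct and KO_WT 1 for Dsp.

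Prox1, the granule cell transcription factor, varied less and without an empty gap around the 4 libraries. It was at 47.2, 26.9 and 45.7 CPM in libraries 1 to 3 of KI, and at 52.5, 39.6 and 15.2 CPM in those of KI_WT. In libraries 1 to 3 of KO it was at 17.8, 43.4 and 49.8 CPM, and in those of KO_WT at 19.6, 58.1 and 34.6 CPM. The highest level was 3.83 times the lowest, and even the lowest library held 508 counts. The lowest Prox1 level was thus a larger part of the highest than that of Dsp or Lct. Summed markers of caudal ganglionic interneurons, which also make Prox1, were at 275 to 335 CPM in KI, 354 to 385 in KI_WT, 201 to 344 in KO and 315 to 427 in KO_WT (6 of 6 genes, none at 0). The 3 markers of lymphatic endothelium summed to 11.4 to 17.0 CPM over all libraries, none at 0. The part of either source in the Prox1 levels was not tested.

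C1ql2, the synaptic protein, was at 13.7, 4.42 and 8.35 CPM in libraries 1 to 3 of KI, and at 10.99, 8.28 and 1.34 CPM in those of KI_WT. It was at 3.53, 25.2 and 9.56 CPM in libraries 1 to 3 of KO, and at 1.98, 11.3 and 6.05 CPM in those of KO_WT. Its widest gap lay at the top of the range, between 13.7 CPM and the 25.2 CPM of KO 2. Tdo2, the weakest member, was at 2.89, 0.656 and 3.45 CPM in libraries 1 to 3 of KI, and at 3.94, 3.45 and 0.657 CPM in those of KI_WT. It was at 1.21, 0.449 and 1.99 CPM in libraries 1 to 3 of KO, and at 0.441, 3.79 and 2.35 CPM in those of KO_WT. Here the 4 lowest libraries were KI 2, KI_WT 3, KO 2 and KO_WT 1, so that KO 2 took the place of KO 1. KO 2 was therefore the highest library for C1ql2 and next to the lowest for Tdo2, although both genes mark the same cells.

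Of the CA1 markers, Spink8 and Fibcd1 followed the granule cell genes. Spink8, the protease inhibitor, was at 5.32, 1.85 and 4.99 CPM in libraries 1 to 3 of KI, and at 6.43, 4.62 and 0.717 CPM in those of KI_WT. It was at 2.71, 5.26 and 4.06 CPM in libraries 1 to 3 of KO, and at 0.945, 8.05 and 3.13 CPM in those of KO_WT. Its highest level was 11.2 times the lowest, with KO 1 close under KO_WT 3. Fibcd1, the acetyl-binding receptor, was at 35.1, 17.0 and 24.6 CPM in libraries 1 to 3 of KI, and at 30.1, 24.1 and 12.8 CPM in those of KI_WT. It was at 19.2, 21.9 and 24.3 CPM in libraries 1 to 3 of KO, and at 12.1, 45.1 and 22.6 CPM in those of KO_WT. The highest level of Fibcd1 was 3.74 times the lowest, and its 3 KO libraries lay close together.

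Wfs1 showed another pattern. It was at 95.2, 85.3 and 84.8 CPM in libraries 1 to 3 of KI, and at 73.7, 74.4 and 78.4 CPM in those of KI_WT. It was at 100.6, 204 and 64.0 CPM in libraries 1 to 3 of KO, and at 84.4, 83.7 and 103 CPM in those of KO_WT. None of the 4 libraries low in Dsp was the lowest for Wfs1; that was KO 3, and the highest was KO 2 at 1.99 times the next library. Without KO 2 the remaining levels spanned 64.0 to 103 CPM. In this tissue Wfs1 therefore did not vary with the other markers of its list.

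**Figure D1:**
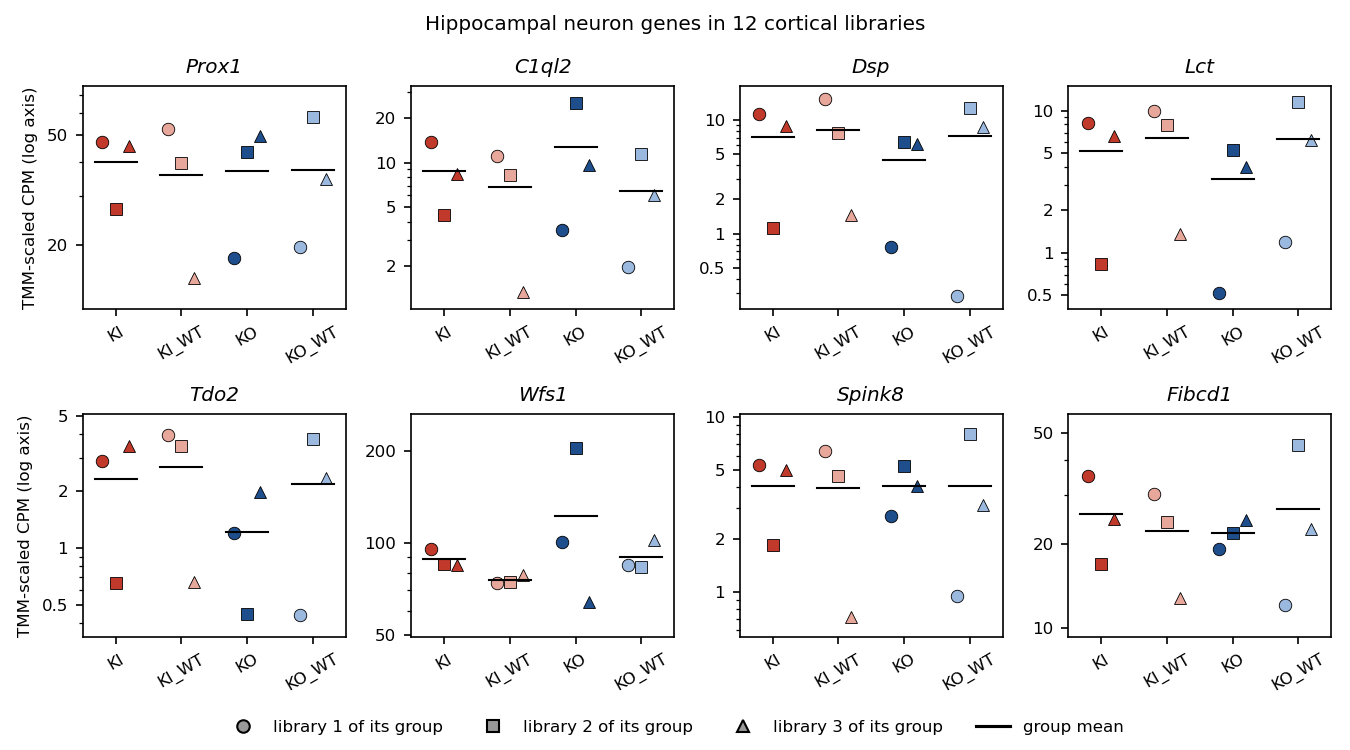
Level of each member (TMM-scaled CPM, log axis, each panel with its own scale) in the 12 libraries by group; symbols mark libraries 1 to 3 of a group and the line is the group mean. For Dsp and Lct, KI 2, KI_WT 3, KO 1 and KO_WT 1 lie below an empty gap, from 1.46 to 6.19 CPM for Dsp, and for Wfs1 KO 2 stands alone at 204 CPM.

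The spread between mice of a group was set against that of all genes tested. The within-group standard deviation of log2 CPM was 2.11 for Dsp, larger than in 99.8% of the 17441 genes, and 1.71 for Lct, larger than in 99.6%. It was 1.35 for Tdo2, 1.31 for C1ql2 and 1.23 for Spink8, each larger than in over 99% of genes. Prox1 followed with 0.77 (96.8% of genes below it), Fibcd1 with 0.64 (94.4%) and Wfs1 with 0.43 (85.5%). Not every group was spread: the highest Wfs1 level was 1.06 times the lowest in KI_WT and 1.12 times in KI, and that of Fibcd1 1.26 times in KO. The median was 1.27 for the 8 members and 0.17 for all genes tested. Counting error alone, taken from the median count of each gene, would give 0.03 for Wfs1 to 0.17 for Tdo2. That figure is larger in the libraries with the lowest counts, such as the 9 counts of Dsp in KO_WT 1.

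**Figure D2:**
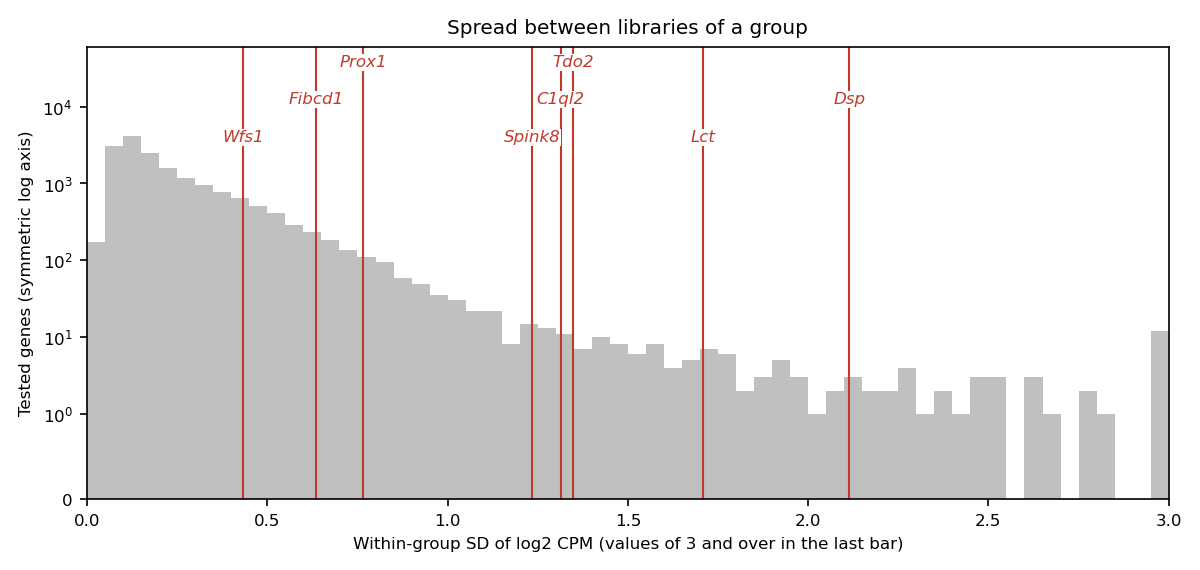
Number of tested genes (symmetric log axis) by within-group standard deviation of log2 CPM, in bins of 0.05, with a red line at each of the 8 members; the last bar holds values of 3 and over. Wfs1 at 0.43 and Fibcd1 at 0.64 lie nearest the bulk of the genes, whose median is 0.17, and Dsp at 2.11 lies farthest out.

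Levels of other regional markers were set beside those of the members, since a cortical dissection can include neighbouring tissue. The 4 libraries low in Dsp had the 4 highest sums of striatal markers (6 of the 7 listed genes are in the tables, none at 0). The sum was 540 CPM in KI 2, 703 in KI_WT 3, 781 in KO 1 and 687 in KO_WT 1, and 252 to 485 CPM in the other 8 libraries. By group it was 352 to 540 CPM in KI, 321 to 703 in KI_WT, 252 to 781 in KO and 438 to 687 in KO_WT. Among these genes Adora2a, an adenosine receptor of striatal projection neurons, was at 40.9, 53.4, 59.6 and 50.8 CPM in KI 2, KI_WT 3, KO 1 and KO_WT 1, above the 10.4 to 35.5 CPM of the others. Markers of other regions did not divide the libraries in this way. The 7 choroid plexus markers summed to 1907 CPM in KI 2 and 895 in KO 1, against 25.9 CPM in KI_WT 3 and 20.1 in KO_WT 1. The 5 olfactory bulb markers were at 274 CPM in KI_WT 3 and at 6.80 in KO_WT 1. Xist, the RNA that coats the inactive X in females, was at 648 CPM in KI 2 and 570 in KO 1 but at 0.119 in KI_WT 3 and 0.0630 in KO_WT 1. Markers of cortical excitatory neurons, the labelled tissue, were present throughout: the 8 genes summed to 992 to 1179 CPM in KI, 1065 to 1274 in KI_WT, 895 to 1502 in KO and 1092 to 1327 in KO_WT, none at 0. Slc17a7 alone gave 1081 of the 1502 CPM in KO 2 and 523 of the 895 CPM in KO 1. The part of neighbouring tissue in the members' levels was not tested.

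**Figure D3:**
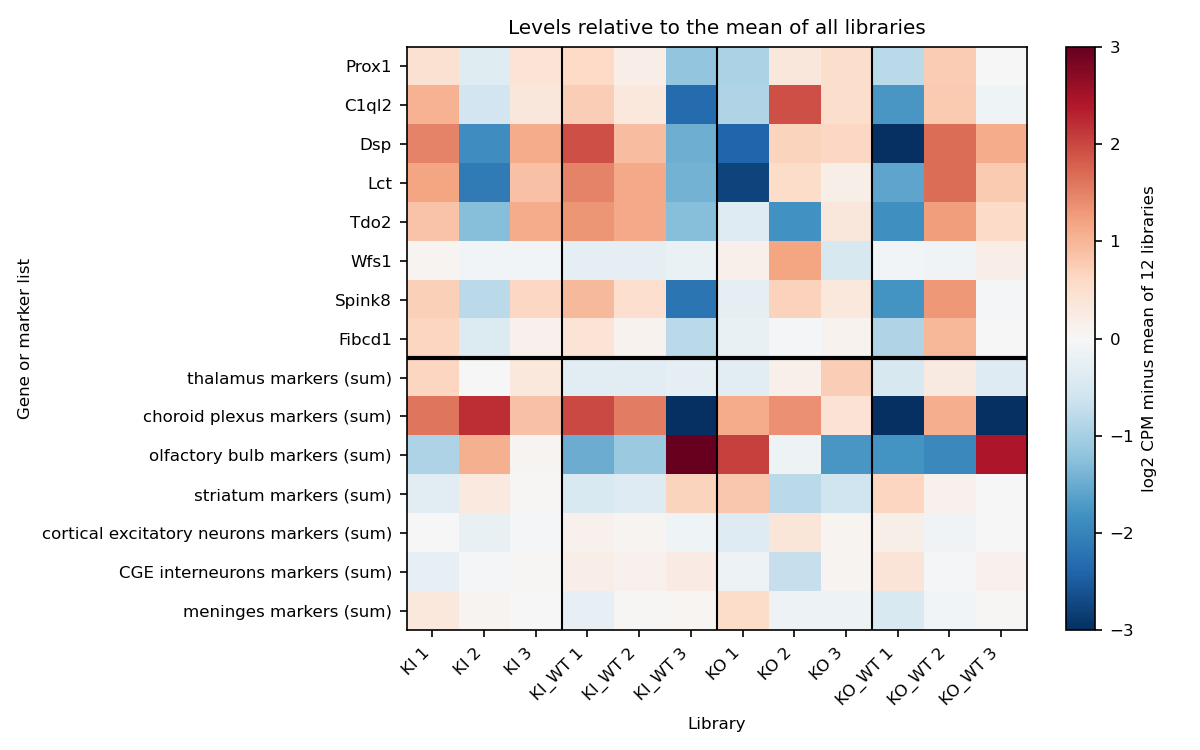
Log2 CPM of the 8 members (top) and of summed marker lists (bottom) minus the mean of all 12 libraries; columns are libraries by group and colours end at -3 and 3. KI 2, KI_WT 3, KO 1 and KO_WT 1 are blue for Prox1, C1ql2, Dsp, Lct, Spink8 and Fibcd1 and red for the striatal sum, and Wfs1 is close to white in most libraries other than KO 2.

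Because the 12 libraries fell into separate sets for Dsp and Lct, correlations between members were taken over the 8 libraries above the gap. Of 28 pairs 19 had a positive Pearson r of log2 CPM. The closest pair was Dsp and Lct, with r = 0.88 (exact permutation p = 0.00414, Benjamini-Hochberg adjusted p = 0.116 over 28 pairs) and Spearman rho = 0.90 (exact permutation p = 0.00456, adjusted p = 0.101, n = 8 libraries). Without the 2 libraries farthest from the median of Dsp, r was 0.79. Over all 8 libraries C1ql2 did not follow this pair, with r = -0.087 to Dsp (exact permutation p = 0.849, adjusted p = 0.915) and r = -0.052 to Lct (exact permutation p = 0.906, adjusted p = 0.940). The corresponding rho values were 0.17 and 0.19. Without the 2 libraries farthest from the median of C1ql2, its r was 0.62 to Dsp and 0.40 to Lct, so the values near 0 rested on those libraries. None of the 28 pairs passed adjustment, and 7 had an unadjusted permutation p of Pearson's r below 0.05. Among the 21 pairs without Wfs1 the median r was 0.50, with 18 above 0. Wfs1 had 1 of 7 values above 0 and a median of -0.28; its r was 0.69 with C1ql2 and -0.85 with Tdo2, and KO 2 is the extreme library of all 3 genes among these 8. These values describe 8 libraries of 4 groups, and all pairs share the same libraries.

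**Figure D4:**
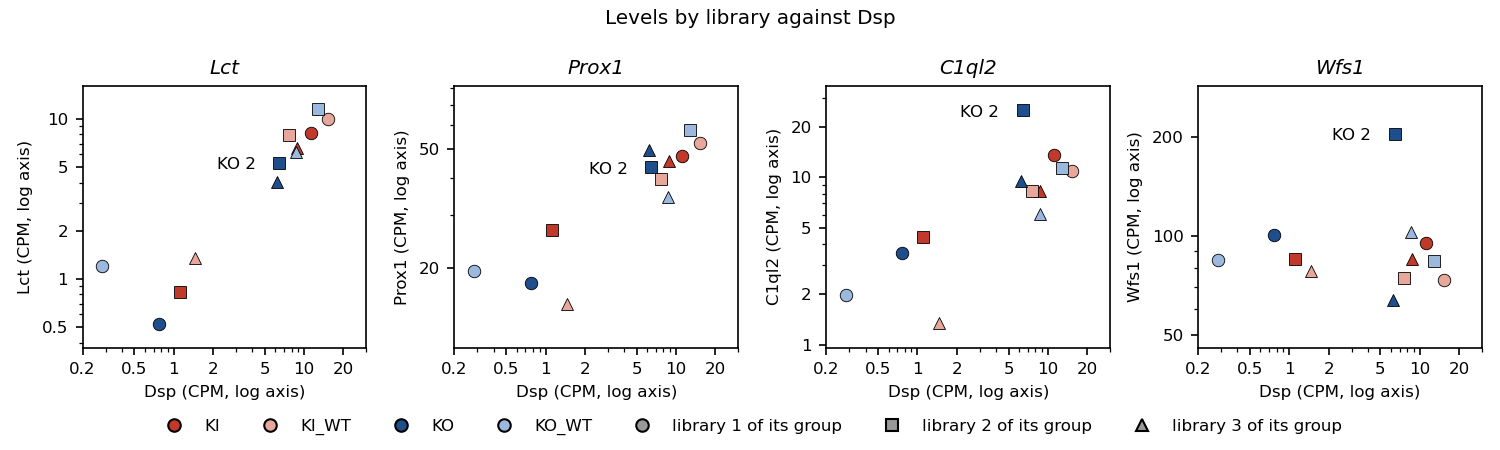
Lct, Prox1, C1ql2 and Wfs1 against Dsp in each library (CPM, both axes log), coloured by group, with symbols for libraries 1 to 3 of a group and KO 2 named. Lct, Prox1 and C1ql2 are low in the 4 libraries with Dsp at or below 1.46 CPM, whereas Wfs1 lies between 64.0 and 103 CPM at both ends of the Dsp range apart from KO 2 at 204 CPM.

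The genes most like each member over the 12 libraries were taken by the highest Pearson r of log2 CPM among 14595 genes with a mean of at least 1 CPM, with r over the 8 libraries above the gap beside it as a description. Dsp was closest to Il16 (0.93 over 12 libraries, 0.80 over 8), Shisa6 (0.92 and 0.39) and Neurod1 (0.91 and 0.57). For Shisa6 most of the likeness therefore came from the 4 low libraries. Lct was closest to Gm2115 (0.93 and 0.70), Chl1 (0.93 and 0.46) and Cacng8 (0.93 and 0.69). Il16 was also the closest gene to Prox1 (0.97 and 0.84), followed by Olfml2b (0.97 and 0.88) and Tnxb (0.96 and 0.76). C1ql2 and Spink8, a granule cell marker and a CA1 marker, had the same closest gene, Cabp7, with r of 0.97 and 0.79 for C1ql2 and of 0.97 and 0.87 for Spink8. Syna was also among the 3 closest genes of both, with 0.94 and 0.74 for C1ql2 and 0.95 and 0.73 for Spink8. Fibcd1 was closest to Pkp2 (0.94 and 0.79), Drd5 (0.94 and 0.83) and Fam13a (0.93 and 0.83). Tdo2 was closest to Cd109 (0.91 and 0.84), Maml2 (0.87 and 0.77) and Ntf3 (0.86 and 0.86). Wfs1 shared none of these genes: its closest were Rasl10a (0.95 and 0.95), Rin3 (0.92 and 0.97) and Igsf9 (0.92 and 0.94). Its likeness did not rest on the 4 low libraries. However, KO 2, at 204 CPM of Wfs1 against 103 CPM in the next library, is among both the 12 and the 8. How far KO 2 alone set these r was not tested. All values share the same libraries, and in 12 points 1 library can set an r.

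The comparison of KI with KI_WT asks what a constitutive exon 5 changes in the cortex. No member passed the test, and 0% of all 17441 genes were called at an adjusted p below 0.05 in edgeR's quasi-likelihood test. The mean was higher in KI for 5 members and lower for 3, with a median log2 fold change of 0.11 over the members and -0.01 over all genes. In this fit of all 12 libraries no member had an unadjusted p below 0.05, against 1214 of all genes. Wfs1, the CA1 marker with the smallest spread, was the only member whose libraries did not overlap, with 84.8 to 95.2 CPM in KI and 73.7 to 78.4 CPM in KI_WT. Non-overlap was found for 12.2% of all genes, so 1 of 8 is near the background. Its log2 fold change was 0.23 (SE 0.30, 95% interval -0.42 to 0.87, edgeR adjusted p = 0.898), and the two-sided exact permutation p was 0.1, the smallest that 3 against 3 can give. That SE draws on the spread of all 12 libraries, KO 2 among them, and was 0.14 without KO 2. With KI and KI_WT fitted alone the SE was 0.073, with an unadjusted p of 0.0128 and an adjusted p of 0.757 in edgeR. The 7 thalamic markers, none at 0, summed to 283 to 445 CPM in KI and 225 to 238 CPM in KI_WT, also without overlap. Of these genes Rora overlapped, at 102 to 154 CPM in KI and 111 to 118 CPM in KI_WT. Ntng1 did too, at 39.8 to 63.7 CPM in KI and 21.8 to 43.9 CPM in KI_WT. The 4 markers of oligodendrocyte precursors summed to 267 to 290 CPM in KI and 189 to 248 CPM in KI_WT. Pdgfra and Gpr17 of that list overlapped. The interneuron sum given above was lower in every KI library than in any KI_WT library, but each of its genes overlapped when taken alone. Lamp5, the highest of them, was at 120 to 173 CPM in KI and 164 to 220 CPM in KI_WT. Others reached higher in KI: Npas1 was at 4.56 to 5.71 CPM in KI and 2.93 to 5.14 CPM in KI_WT. Sncg was at 2.34 to 5.01 CPM in KI and 2.15 to 3.67 CPM in KI_WT. Sums of choroid plexus, olfactory bulb, striatal, meningeal, hypothalamic, lymphatic and cortical excitatory markers overlapped between KI and KI_WT. The part of any of these lists in the Wfs1 difference was not tested. Xist was at 0.141, 648 and 856 CPM in libraries 1 to 3 of KI and at 750, 0.611 and 0.119 CPM in those of KI_WT. With a term for Xist the log2 fold change of Wfs1 was 0.15.

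The other 7 members overlapped between KI and KI_WT. Dsp averaged 7.03 ± 5.26 CPM in KI and 8.11 ± 6.91 CPM in KI_WT (SD, n = 3 each), and its log2 fold change of -0.20 had a 95% interval of -2.56 to 2.15. Lct averaged 5.19 ± 3.86 CPM in KI and 6.44 ± 4.53 CPM in KI_WT (SD, n = 3 each; log2 fold change -0.31, interval -2.38 to 1.76). Prox1 averaged 39.9 ± 11.3 CPM in KI and 35.8 ± 19.0 CPM in KI_WT (SD, n = 3 each), with a log2 fold change of 0.16 and an interval of -0.90 to 1.22. Intervals of this width leave room for several-fold differences in either direction for Dsp and Lct. The remaining log2 fold changes were 0.36 for C1ql2, -0.20 for Tdo2, 0.05 for Spink8 and 0.20 for Fibcd1. The sign of each member other than Wfs1 changed when certain single libraries were left out. For Dsp the value was -0.71 without KI 1 and 0.62 without KI_WT 1.

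The comparison of KO with KO_WT asks what the loss of exon 5 changes. Again no member was called, against 0.00573% of all genes (1 of 17441), and none of the 8 had libraries without overlap, against 12.4% of all genes. No member had an unadjusted p below 0.05, against 1260 of all genes. The mean was lower in KO for 6 members and higher for C1ql2 and Wfs1, with a median log2 fold change of -0.15 over the members and 0.01 over all genes. C1ql2 averaged 12.7 ± 11.2 CPM in KO and 6.45 ± 4.69 CPM in KO_WT (SD, n = 3 each), a log2 fold change of 0.98 (SE 0.80, 95% interval -0.77 to 2.72, edgeR adjusted p = 0.762). KO 2 set most of that value, which was 0.02 without it. Wfs1 averaged 123 ± 72.7 CPM in KO and 90.2 ± 10.7 CPM in KO_WT (SD, n = 3 each), a log2 fold change of 0.45 (SE 0.30, 95% interval -0.20 to 1.09, edgeR adjusted p = 0.719). Without KO 2 it was -0.13 and without KO 3 it was 0.76. Xist was at 570, 677 and 0.138 CPM in libraries 1 to 3 of KO and at 0.0630, 0.180 and 0.0903 CPM in those of KO_WT. It was thus high in KO 1 and KO 2 but in no KO_WT library, so sex as read from Xist was not balanced between these groups. With a term for Xist the log2 fold change of Wfs1 was 0.19.

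The enzymes and the desmosomal gene had lower means in KO. Lct averaged 3.28 ± 2.47 CPM in KO and 6.30 ± 5.14 CPM in KO_WT (SD, n = 3 each; log2 fold change -0.95, interval -3.06 to 1.16). Tdo2 averaged 1.21 ± 0.770 CPM in KO and 2.19 ± 1.68 CPM in KO_WT (SD, n = 3 each; log2 fold change -0.85, interval -2.62 to 0.93). Dsp averaged 4.46 ± 3.20 CPM in KO and 7.23 ± 6.36 CPM in KO_WT (SD, n = 3 each; log2 fold change -0.70, interval -3.09 to 1.69). All these intervals include 0. The values were close to 0 for Prox1 (-0.02) and Spink8 (-0.01) and were -0.29 for Fibcd1. With KI 2, KI_WT 3, KO 1 and KO_WT 1 all left out, leaving 2 libraries a group, the log2 fold changes of KO over KO_WT were 0.996 for C1ql2, -0.76 for Dsp, -0.92 for Lct, -1.31 for Tdo2 and 0.52 for Wfs1. That choice was made on the members' own levels. No member was called in it, against 2 of all 17501 genes tested there (0.0114%).

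Animal numbers in the sample titles fall into a range below 200 and one above it, and only the knockout line has animals of both. Below 200 the log2 ratio of KO 1 over the mean of KO_WT 2 and KO_WT 3 was -3.80 for Dsp, -4.09 for Lct, -1.38 for Prox1 and -1.30 for C1ql2. Above 200 the ratio of the mean of KO 2 and KO 3 over KO_WT 1 was 4.48 for Dsp, 1.96 for Lct, 1.250 for Prox1 and 3.13 for C1ql2. Tdo2, Spink8 and Fibcd1 likewise had ratios below 0 in the lower range (-1.35, -1.04 and -0.82) and above 0 in the higher (1.47, 2.30 and 0.94). The ratio of Wfs1 was 0.11 in the lower range and 0.67 in the higher. KO 1 and KO_WT 1, the single libraries in these ratios, are both among the 4 low libraries, so that the pooled values for KO and KO_WT average differences of opposite sign for 7 of 8 members. With a term for the range in the fit, the log2 fold change of KO over KO_WT was -0.15 for Dsp (SE 2.29) and -0.15 for Tdo2. It was -0.89 for Lct, 0.83 for C1ql2 and 0.39 for Wfs1, near the -0.95, 0.98 and 0.45 without the term. For Prox1 it was -0.065, for Spink8 0.48 and for Fibcd1 0.041. The part of the range in the KO differences was not tested.

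**Figure D5:**
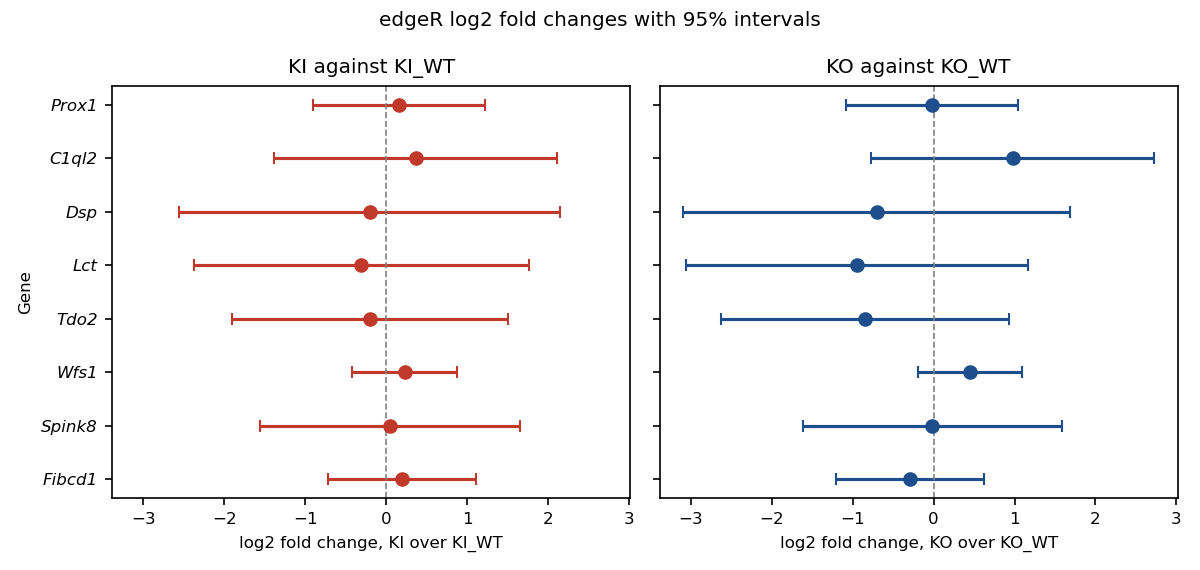
Log2 fold changes of the 8 members with 95% intervals from the edgeR fit, for KI over KI_WT (left) and KO over KO_WT (right), 3 libraries a group; the dashed line marks no difference. Every interval includes 0, and those of Dsp, which reach from -2.56 to 2.15 in the knock-in line, are the widest.

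Between the mutants, KI against KO, no member was called, against 0.00573% of all genes, and no member had libraries without overlap, against 10.2% of all genes. The log2 fold changes of KI over KO ran from -0.53 for C1ql2 to 0.93 for Tdo2. Tdo2 averaged 2.33 ± 1.48 CPM in KI and 1.21 ± 0.770 CPM in KO (SD, n = 3 each; 95% interval of the log2 fold change -0.84 to 2.70). Between the wild types, KI_WT against KO_WT, 0% of all genes were called and no member was. Wfs1 alone did not overlap there, with 73.7 to 78.4 CPM in KI_WT and 83.7 to 103 CPM in KO_WT, against 7.31% of all genes without overlap. Its log2 fold change was -0.26 (SE 0.30, 95% interval -0.90 to 0.39, edgeR adjusted p = 0.9998; two-sided exact permutation p = 0.1). The wild types thus differed in Wfs1 by about as much as KI and KI_WT did, and the KI_WT libraries take part in both differences. Animal number range and line cannot be told apart fully between the wild types, since all KI_WT mice are of the higher range.

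The difference between the KI effect and the KO effect was tested as an interaction. No member was called, against 0.00573% of all genes. The differences, KI effect minus KO effect on the log2 scale, ran from -0.61 for C1ql2 to 0.64 for Tdo2 and Lct, and the smallest edgeR adjusted p was 0.940, for Fibcd1 (0.48, 95% interval -0.81 to 1.78). The interval for Dsp was -2.85 to 3.84, the widest of the 8.

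Genes listed for the fields of the hippocampus, other than the members, were examined in the same fit. Of 31 genes 30 were in the tables and passed the filter, and none was called in KI against KI_WT or in KO against KO_WT. The 10 dentate genes had a median log2 fold change of 0.01 for KI over KI_WT (6 higher, 4 lower) and of -0.20 for KO over KO_WT (2 higher, 8 lower). The 7 CA1 genes had medians of -0.02 (3 higher, 4 lower) and -0.18 (0 higher, 7 lower), and the 8 genes of CA2 and CA3 had 0.22 and 0.15 (5 higher and 3 lower in each). The 5 genes of all fields had -0.06 (1 higher, 4 lower) and -0.05 (2 higher, 3 lower). Over all genes the medians were -0.01 and 0.01.

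The smallest p of these genes belonged to Dock10, a guanine nucleotide exchange factor for small GTPases, with a log2 fold change of -0.41 for KO over KO_WT (SE 0.15, unadjusted p = 0.0207 and adjusted p = 0.678 in edgeR). It was at 67.0, 63.4 and 80.7 CPM in libraries 1 to 3 of KO, and at 73.4, 105 and 100.97 CPM in those of KO_WT, and KO_WT 1 lay below KO 3. Stxbp6, a syntaxin-binding protein, had -0.25 for KO over KO_WT and -0.29 for KI over KI_WT, where Dock10 had -0.20. Of the CA1 list, Pex5l had -0.33 and Tyro3, a receptor tyrosine kinase, had -0.20 for KO over KO_WT, while Man1a had -0.15 and Nov 0.12 for KI over KI_WT. Of CA2 and CA3 genes, Map3k15 had -0.38 and Bok, a BCL2 family protein, 0.26 for KI over KI_WT, and Amigo2 had 0.45 and Grik4, a kainate receptor subunit, 0.32 for KO over KO_WT. Of the genes of all fields, Neurod2 had -0.14 and Cnih3 0.05 for KI over KI_WT, and Zbtb20, a zinc finger factor of hippocampal neurons, had -0.46 and Hpca (hippocalcin) -0.28 for KO over KO_WT. None of these values passed the test.

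The order of libraries was compared with that of the members. The lowest library was KI 2, KI_WT 3, KO 1 or KO_WT 1 for 25 of the 30 genes, against 45.1% of all genes tested. Their 4 lowest libraries included at least 3 of these for 19 genes, against 10.9% of all genes tested, and were exactly these for 6, among them Il16, Neurod1, Gpr161, Iyd and Nr3c2. Those 4 libraries were chosen on the levels of Dsp, and the gene lists with earlier results of these data known. The counts beside the shares of all genes are therefore a description only. Il16, the interleukin 16 gene, was at 10.7, 5.33 and 10.3 CPM in libraries 1 to 3 of KI, and at 11.6, 7.73 and 3.41 CPM in those of KI_WT. It was at 3.59, 8.29 and 8.12 CPM in libraries 1 to 3 of KO, and at 3.15, 14.5 and 7.37 CPM in those of KO_WT. Neurod1, a bHLH factor of granule cells, had the same 4 lowest libraries within a narrower span of 9.17 to 14.8 CPM, whereas Calb1 (calbindin), also abundant in cortex, spanned 158 to 205 CPM with KO_WT 1 as its highest library. Iyd, listed for CA2 and CA3, spanned 0.189 CPM in KO_WT 1 to 2.10 CPM in KO_WT 2.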

How the data were processed

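Poly(A) RNA-seq of cortex was analysed in 12 libraries from 12 animals. The authors demultiplexed and aligned reads with tools that, per the submitters' processing notes, include bcl2fastq 2.17, STAR 2.5.0c and Cufflinks 2.2.1, with the genome build GRCm38; the read counter, annotation and strand setting are not given in the sources used here. The deposited count table holds whole-number counts of 41388 genes. The RPKM table deposited by the authors holds the counts scaled by length and library size: the length that count and RPKM imply for a gene differed between libraries by at most 0.0790% (8292 genes of at least 500 counts). Of the gene IDs 40254 matched GENCODE M21, used for coordinates. No pair of libraries within a group was a copy: their counts differed by 13.6 to 73.5 times the counting variance.

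Counts were fitted with edgeR 4.0.16 in R 4.3.3 (filterByExpr, TMM, quasi-likelihood test, 1 mean per group over 12 libraries, 8 residual degrees of freedom) and p-values were adjusted by Benjamini-Hochberg over 17441 genes in each of 5 comparisons, with a threshold of 0.05. The fit was tested on simulated data. Log2 CPM used a prior count of 1. Replicate numbers follow the order of the sample records and pair nothing. The members and the gene lists were chosen with earlier results of these data known. Named genes were the 8 members, the 2 genes with the smallest p per hippocampal list, the 3 genes most like each member and the first genes of a marker list; Il16, Neurod1, Calb1 and Iyd as examples, Adora2a and Xist were named after their values were seen. A gene that this rule takes is not reported here. Correlations between members had been planned over 12 libraries and were taken over 8, since Dsp and Lct put the libraries in separate sets. Alternatives used DESeq2 1.42.0, limma 3.58.1, other scalings and filters, and left-out libraries.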

Additional observations from a re-analysis of the deposited data

How the results depend on the processing

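No member was called under any of the 23 settings tried, each run on all 5 comparisons except that the fit of the compared groups alone has no difference of effects. Over all genes these gave 0 to 12 calls per comparison, the most for KI against KO with DESeq2 (0.043% of 27886 genes), and the smallest adjusted p of a member in KI against KI_WT or KO against KO_WT was 0.181 (Wfs1, KO over KO_WT, without KO 3). Leave-one-out aside, 12 of 176 log2 fold changes had the other sign and 38 others were over 1.5 times larger or smaller; the causes were not tested. With limma voom those of the other sign were Prox1 (-0.067), Spink8 (-0.21) and Fibcd1 (-0.024) for KI over KI_WT and Spink8 (0.12) for KO over KO_WT. For KO over KO_WT, log2(RPKM + 0.1) gave 0.043 for Prox1 and 0.45 for Spink8, log2(RPKM + 1) gave 0.035 and 0.30, and a term for the animal number range gave 0.48 for Spink8 and 0.041 for Fibcd1. Without KI 2, KI_WT 3, KO 1 and KO_WT 1 together, chosen after seeing the data, Spink8 had -0.10 for KI over KI_WT and Prox1 0.010 for KO over KO_WT.

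Of the 38 values, 8 came from log2(RPKM + 0.1), 9 from log2(RPKM + 1), 7 from voom, 5 from leaving out the 4 libraries, 4 from the term for Xist, 3 from that for the animal number range and 2 from the filter at 1 CPM. Among them, voom gave -0.91 for Dsp, -0.998 for Lct and -0.66 for Tdo2 for KI over KI_WT.

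With each library left out in turn, the log2 fold change of KI over KI_WT ran from -0.20 (without KI_WT 3) to 0.54 (without KI_WT 1) for Prox1, -0.12 to 0.87 for C1ql2, -0.71 to 0.62 for Dsp, -0.79 to 0.20 for Lct, -0.67 to 0.24 for Tdo2, 0.18 to 0.27 for Wfs1, -0.44 to 0.60 for Spink8 and -0.093 to 0.47 for Fibcd1. That of KO over KO_WT ran from -0.32 (without KO_WT 1) to 0.45 (without KO_WT 2) for Prox1, 0.023 (without KO 2) to 1.66 (without KO_WT 2) for C1ql2, -1.26 to -0.0043 for Dsp, -1.46 to -0.18 for Lct, -1.39 to -0.20 for Tdo2, -0.13 to 0.76 for Wfs1, -0.48 to 0.97 for Spink8 and -0.63 to 0.33 for Fibcd1. Taken as deviations from group means over the same 8 libraries, 22 of 28 pairs of members had a positive r, against 19 for levels. With 2 libraries a group the deviations of a group mirror each other, so this count is a description without a test.

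No paired analysis was possible because the replicate numbers were given in the order of the records and pair no animals. The libraries are single dissections with no sex or litter in the labels. With 3 mice a group, spreads of this size cannot show differences of less than several-fold in Dsp or Lct. Tdo2, Lct, Dsp and Spink8 rest on as few as 9 to 24 counts in their lowest library, where counting error adds to the spread. Counts give RNA of the piece dissected and say nothing of the number of cells.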

Other observations

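KO 2 was the highest library for Wfs1 and for C1ql2. Its Wfs1 level was 1.99 times that of the next library, rank 38 among the 1942 genes with a mean of at least 1 CPM that were highest in KO 2, and its C1ql2 level was 1.84 times the next (25.2 against 13.7 CPM), rank 50. KO 2 was the highest library for 13.7% of all genes tested and the lowest for 13.3%. Of the other hippocampal genes it was highest for Grik4 (31.7 CPM), Bok (60.8 CPM), Neurod2 (71.2 CPM), Mpped1 (178 CPM), Rgs14 (53.4 CPM) and Cnih3 (72.4 CPM). It was lowest for Plk5 (4.25 CPM), Stxbp6 (77.8 CPM), Dock10 (63.4 CPM) and Tyro3 (136 CPM). Its sums of striatal markers (252 CPM) and of caudal ganglionic interneuron markers (201 CPM) were the lowest of the 12 libraries. Slc17a7, a vesicular glutamate transporter in the list of cortical excitatory neurons, was at 1081 CPM, against 523 to 763 CPM in the other 11. No other gene of that list was highest in KO 2, where Tbr1 was at 75.6, Rorb at 40.8 and Foxp2 at 22.3 CPM. These genes were chosen after their values were seen.

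Cacng5, an AMPA receptor auxiliary subunit listed for CA2 and CA3, did not follow the members: it was highest in KI_WT 3, at 54.3 CPM, and lowest in KO_WT 1, at 7.28 CPM, although both libraries were low in Dsp; it too was chosen after its values were seen.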
